A study of Mus musculus with 20 samples.

Results

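At 4 hours after the start of adipogenic induction, 938 regions of the 3T3-L1 genome held a peak of each of 5 transcription factors: C/EBPbeta, C/EBPdelta, the glucocorticoid receptor GR, Stat5a and RXR. They were found by joining all peaks of the 5 lists that overlapped by 1 bp or more into 35341 union regions and keeping those with a peak of every list, 2.65% of the total. The regions were thus chosen by the measured peak positions of the 5 factors at 4 hours, and that binding is described below without a test. The peaks of the other 14 lists played no part in the choice. Fewer factors were found at the remaining regions: 1535 held 4 factors, 3063 held 3, 11219 held 2 and 18586 held 1.

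The cells were 3T3-L1, an established mouse line of preadipocytes that turns into fat cells after hormonal induction. Cells grown in calf serum were collected 2 days past confluence (day 0), or 2 hours, 4 hours, 1 day and 2 days into treatment with fetal bovine serum to which 3-isobutyl-1-methylxanthine, insulin and dexamethasone had been added, or on day 6, after the medium had been changed on day 2 to fetal bovine serum with insulin and then to fetal bovine serum without it. Open chromatin was mapped by sequencing of small fragments cut out by DNase I (DHS lists: day 0, 2 hours, 4 hours, day 1, day 2 and day 6). Binding was mapped by chromatin immunoprecipitation at 4 hours for the 5 factors. C/EBPbeta was also mapped on day 0, at 2 hours and on day 2, and C/EBPdelta on day 0. RNA Pol II, the polymerase that transcribes protein-coding genes, was mapped on day 0 and at 4 hours, and PPARgamma on days 2 and 6.

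C/EBPbeta and C/EBPdelta are related leucine zipper proteins that act in the first wave of adipogenesis. GR is the receptor for dexamethasone, Stat5a is a transcription factor switched on by cytokine and growth hormone receptors, and RXR is the partner with which many nuclear receptors, PPARgamma among them, bind DNA. PPARgamma is the nuclear receptor that establishes and maintains the fat cell state. Regions where several unrelated factors bind together are known as transcription factor hotspots, and they often lie in enhancers, stretches of open chromatin away from promoters.

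Each of the 19 lists came from 1 library, with no replicate, and gives positions only, without score, height or read count. Read depth was unknown, so list length is given instead. The 5 lists of the rule held 29957 (C/EBPbeta), 18327 (C/EBPdelta), 6977 (Stat5a), 4080 (GR) and 2076 (RXR) peaks, and the other lists between 2581 and 35389. No comparison below was tested: regions of 1 library are not replicates of a condition. Shares carry exact 95% Clopper-Pearson intervals, which cover counting over regions only. Regions are named by position on mouse genome build mm9, counted from 1. No sequence or gene annotation of that build was used here.

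Each of the 5 lists gave a similar number of peaks to these regions, from 945 (GR) to 985 (C/EBPdelta), because the rule requires every list. The share of a list found there therefore follows from its length. Of the RXR peaks, 45.8% lay in regions with all 5 factors, against 23.2% of the GR, 13.8% of the Stat5a, 5.37% of the C/EBPdelta and 3.24% of the C/EBPbeta peaks. The regions had a median width of 945.5 bp, with quartiles of 830 and 1129 bp. Peaks of the 5 lists were wider there than elsewhere. The median width was 820 bp inside and 573 bp outside for C/EBPbeta, 716 and 523 bp for C/EBPdelta, 792 and 701 bp for GR, 650.5 and 570 bp for Stat5a, and 537 and 476 bp for RXR. A wide peak has more chances to overlap others, so the rule itself favours width.

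The 5 peaks of a region lay almost on top of each other. Peaks were joined where they overlapped, so much of this closeness is built into the rule. A stretch covered by all 5 lists was present in 929 of the 938 regions (99.0%), with a median length of 484.5 bp, and was at least 200 bp long in 921. The spread of the midpoints, the distance from the leftmost to the rightmost of the 5 peak middles, had a median of 129 bp and quartiles of 85.5 and 195 bp. It was at most 100 bp in 305 regions and at most 200 bp in 722. Exactly 1 peak of each list made up 858 regions (91.5%), where the median spread was 122 bp. The spread went beyond 500 bp in 32 regions, of which 25 held more than 1 peak of some list.

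**Figure D1:**
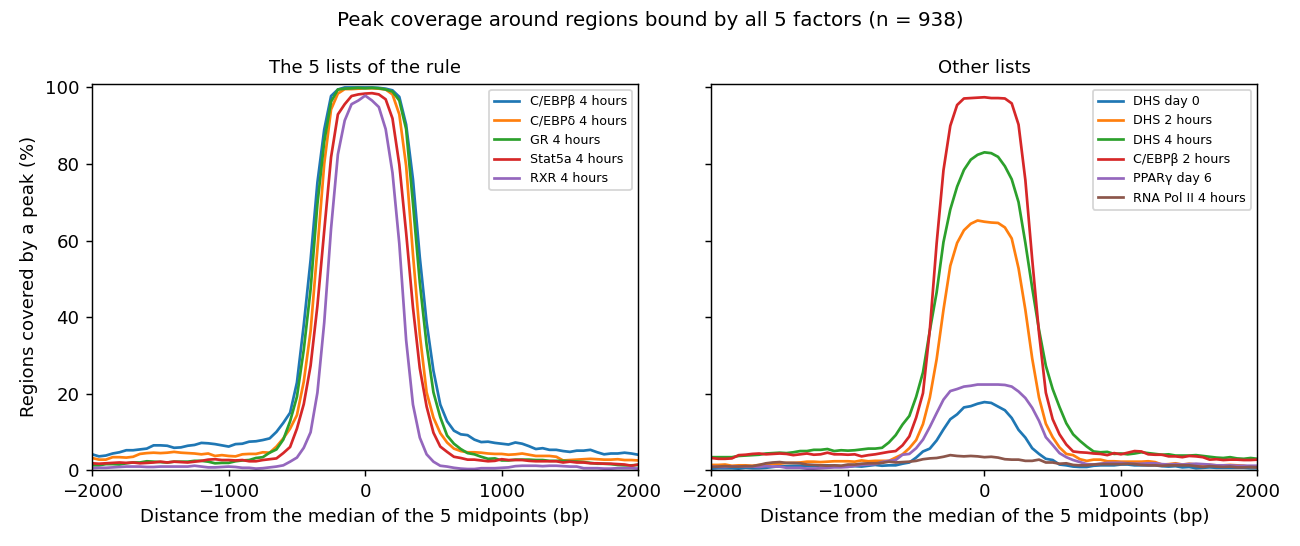
Share of the 938 regions with all 5 factors that were covered by a peak (vertical axis, %) at each distance from the median of the 5 midpoints (horizontal axis, bp), for the 5 lists of the rule (left) and 6 other lists (right). RXR peaks form the narrowest curve on the left, and on the right C/EBPbeta of 2 hours covers 97.4% of the midpoints and RNA Pol II of 4 hours 3.41%.

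The 5 factors lay at similar distances from their shared middle. The orientation of the sequence was not used, so whether the factors stood in a consistent order could not be judged. Each factor was compared with the median of the 5 midpoints, shown as 0 in the plot of peak coverage. C/EBPdelta lay closest to it, at a median of 20.5 bp, then C/EBPbeta at 26.5 bp, GR at 27.25 bp, Stat5a at 28.5 bp and RXR at 30 bp. These medians differ by far less than the quartiles within each factor (for RXR, 6.62 to 69.5 bp). RXR was the farthest of the 5 in 24.7% of regions and C/EBPdelta in 14.3%. At 500 bp to the right of the median midpoint, RXR peaks still covered 2.24% of regions and C/EBPbeta peaks 26.0%, which goes with their median widths of 538 and 830 bp (widest peak of each list).

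Each pair of factors lay about as far apart in these regions as where the pair bound without the full set. Across the 10 pairs, the median distance between midpoints lay between 43.25 bp (C/EBPbeta and C/EBPdelta) and 64 bp (GR and RXR) in regions with all 5. It was smaller than in other regions with the pair for 5 pairs, larger for 4 and equal for 1, and the largest difference was 5.25 bp. In regions without the full set, the C/EBP pair lay 38.5 bp apart and GR and RXR 62.25 bp. GR and Stat5a were 56.25 bp apart in the 938 regions and 53.5 bp apart in 1251 others, and Stat5a and RXR 47 and 52.25 bp. The quartile ranges overlapped over most of their length for every pair. The related C/EBP factors shared midpoints within 100 bp in 82.2% of regions with all 5 and in 87.0% of 14215 others.

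**Figure D2:**
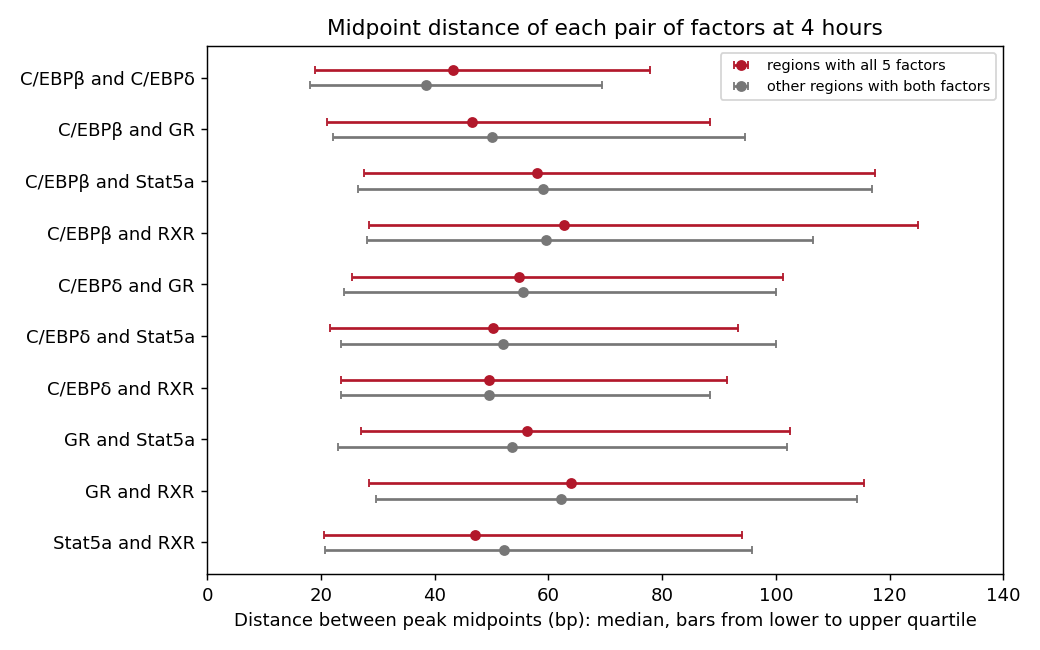
Distance between the peak midpoints of each of the 10 pairs of factors at 4 hours (bp), as the median (point) with the lower and upper quartile (bar), in the 938 regions with all 5 factors (red) and in other regions with both factors of the pair (grey). Red and grey medians differ by a few bp, and the bars overlap for every pair.

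The tightest and the loosest regions are named by the spread of their midpoints. Among the 3 tightest, the region on chromosome 11 at 21628895 to 21629479 had a spread of 25.5 bp and was listed as open from 2 hours to day 6 and bound by PPARgamma on day 6. A region on chromosome 16 at 31526506 to 31527467, with the same spread, was listed as open from 2 hours to day 1 only. The third, on chromosome 14 at 26877165 to 26878126 (26.5 bp), was in no DHS list, yet held C/EBPbeta at every time, C/EBPdelta on day 0 and PPARgamma on both days. All 3 held 1 peak of each list. The third is 1 of a group on chromosome 14. The region at 27016779 to 27017740 had the same width (962 bp), spread and peak offsets, and the one at 26737403 to 26738364 had the same width, the same lists and a spread of 53 bp. The 3 lay 139.76 and 139.61 kb apart. They may not be independent sites; whether they share their sequence was not tested. The 3 loosest were on chromosome 19: at 5844994 to 5847648, with 10 peaks of the 5 lists and a spread of 1488.5 bp, at 23068099 to 23070300, with 9 peaks and 1405 bp, and at 17023043 to 17025182, with 8 peaks and 1113.5 bp. The first and the last had no base covered by all 5 lists, so they join neighbouring clusters of peaks.

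The limits of the rule touched few regions. With 50 bp of overlap needed to join peaks, 937 regions held all 5 factors. Of the regions with all 5, 9 had no base covered by all 5 lists and 4 had 1 to 50 bp. On the other side of the rule, 1535 regions held 4 factors, and the absent factor was RXR in 1005, Stat5a in 275, GR in 248 and C/EBPdelta in 7. None of the 1535 lacked C/EBPbeta, the longest list. The absent factor had a peak within 500 bp of 17 of them: 6 that lacked RXR, 7 that lacked Stat5a, 3 that lacked GR and 1 that lacked C/EBPdelta. The nearest were on chromosome 15 at 62160512 to 62161197 (a GR peak 16 bp away), chromosome 7 at 127104515 to 127105149 (RXR, 50 bp) and chromosome 15 at 62159702 to 62160500 (RXR, 112 bp). The chromosome 15 regions are neighbours. For regions without RXR, the median gap to the nearest RXR peak was 128 kb, so a peak of the absent factor just out of reach was rare.

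Regions with all 5 factors lay closer to each other than regions with fewer factors lay to them. The median distance to the next region with all 5, centre to centre, was 237 kb from a region with all 5, with quartiles of 54.1 and 980 kb. From regions with 4, 3, 2 and 1 factors the median distance to the nearest of the same 938 regions was 328, 451, 651 and 726 kb. Another region with all 5 lay within 50 kb of 227 of the 938 (24.2%, 21.5 to 27.1), 20.1% (18.2 to 22.2) of regions with 4 factors and 10.2% (9.76 to 10.6) of regions with 1. Neighbours among the 938 count each other, so the 227 are not independent and their interval is likely too narrow. It already overlaps that of regions with 4 factors. Regions with 4 factors, which are more numerous, lay a median of 173 kb from each other, with 27.0% within 50 kb of the next. Bound regions of any kind were denser around regions with all 5 factors: the nearest region of the 5 lists was 4.59 kb away (median) for regions with all 5 and 9.42 kb for regions with 1 factor. Even so, the next region along the chromosome most often held 1 factor (45.5% of cases), and it held all 5 in 7.57%, against 4.82% next to regions with 4 factors and 2.51% next to regions with 1.

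**Figure D3:**
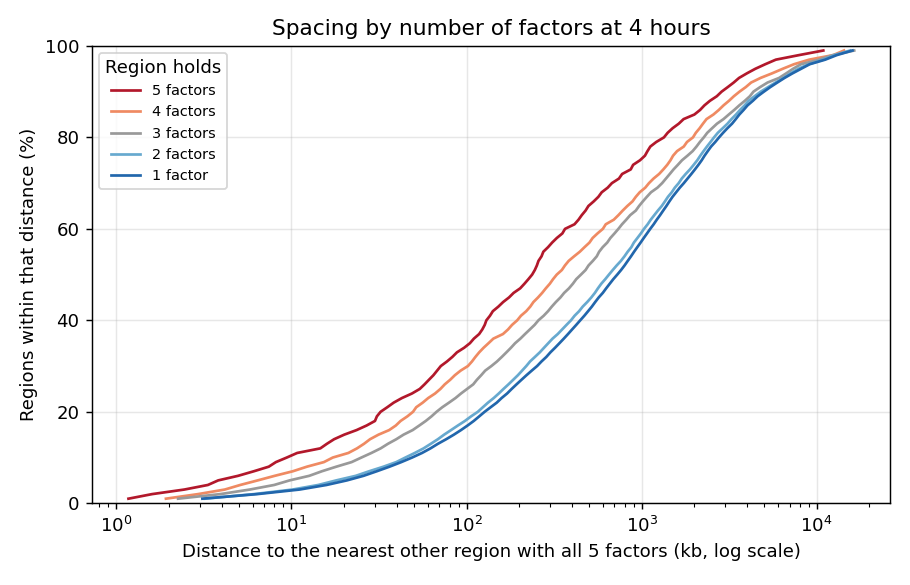
Share of regions (vertical axis, %) whose nearest other region with all 5 factors lies within a given distance (horizontal axis, kb, log scale), by the number of factors the region itself held at 4 hours. The 5-factor line is the leftmost, with a median of 237 kb, and the 1-factor line lies at the right, with a median of 726 kb.

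With 50 kb as the largest step, 711 regions stood alone and 227 fell into 103 chains: 87 pairs, 13 chains of 3, 2 of 4 and 1 of 6. In 26 regions the next one was at most 2 kb away. The longest chain, on chromosome 3 from 151667274 to 151790917, held 6 regions with all 5 factors among 13 bound regions in 124 kb. All 6 were in the DHS lists of 2 hours and 4 hours and held C/EBPbeta on day 0, at 2 hours and on day 2, while 2 were listed as open on day 0 and 1 held PPARgamma, on day 6. On chromosome 11, from 86400071 to 86443487, 4 regions lay within 43.4 kb. Of these, 3 held PPARgamma on day 2 and 2 held RNA Pol II at 4 hours. A further 4 lay on chromosome 13 from 90612360 to 90656026, none with PPARgamma on day 2. Within each of these chains the regions differed in their lists, for example from 9 to 17 of the 19 lists on chromosome 11.

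With the lists as deposited, most of the 938 regions were absent from the day 0 DHS list and present in that of 4 hours (612, or 65.2%, 62.1 to 68.3). This was nearly as frequent at regions with 4 factors (62.1%, 59.7 to 64.6), and the share of all bound regions was 32.4%. The DHS list of day 0 held 184 of the 938 regions (19.6%, 17.1 to 22.3), that of 2 hours 617 (65.8%, 62.6 to 68.8), that of 4 hours 795 (84.8%, 82.3 to 87.0), that of day 1 841 (89.7%, 87.5 to 91.5), that of day 2 735 (78.4%, 75.6 to 81.0) and that of day 6 190 (20.3%, 17.7 to 23.0). Over all 35341 bound regions the shares were 9.22%, 15.5%, 41.3%, 40.7%, 30.8% and 9.54%. The lists of day 0, 2 hours and day 6 are short (9989, 9055 and 11936 peaks, against 31751 at 4 hours), so the order of the times cannot be told apart from list length. The 2 hours list is the shortest of the 6 and still held 3.35 times as many of the 938 regions as the day 0 list, against 3.05 times for regions with 4 factors and 1.68 times over all bound regions. Regions with 4 factors were in it in 48.2% of cases (45.7 to 50.7). With every list cut to the length of the RXR list by peak width, 189 regions held all 5 factors. The 2 hours list then held 63.5% of them, the 4 hours list 25.9% and the day 1 list 32.8%, so 2 hours became the highest time and the 4 hours list no longer held most regions.

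**Figure D4:**
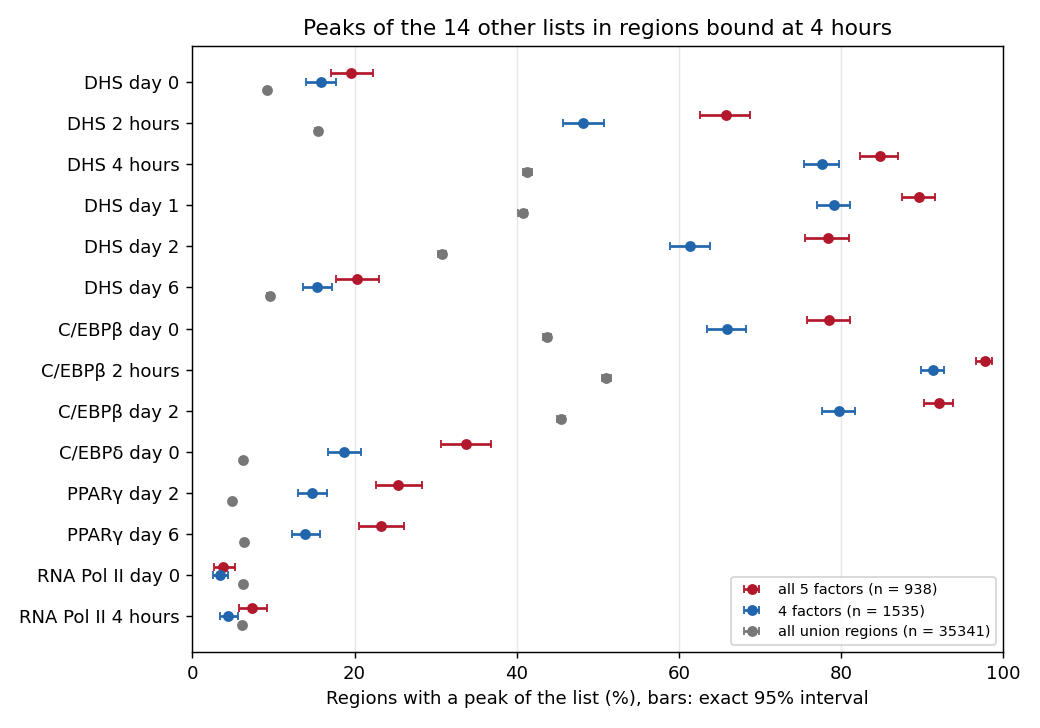
Share of regions (horizontal axis, %) with a peak of each of the 14 lists outside the rule, for the 938 regions with all 5 factors (red), the 1535 with 4 factors (blue) and all 35341 union regions (grey). Points are shares and bars exact 95% intervals. The red point lies to the right of the blue one in all 14 lists, and for both RNA Pol II lists the 3 points lie below 10%.

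Openness came in a few recurring courses over time. The most frequent, with 274 regions (29.2%, 26.3 to 32.2), was presence at 2 hours, 4 hours, day 1 and day 2 with absence on day 0 and day 6. This course took in 18.4% of regions with 4 factors and 3.79% of all bound regions. Next came 114 regions (12.2%) listed at 4 hours, day 1 and day 2 only, and 110 (11.7%) listed at all 6 times, against 12.4% and 8.14% of regions with 4 factors. Only 42 regions (4.48%, 3.25 to 6.00) were in no DHS list, against 9.90% of regions with 4 factors and 45.8% of all. Of the 612 regions absent on day 0 and present at 4 hours, 68.5% (64.6 to 72.1) were already in the 2 hours list, and 92.8% were in the day 1, 77.6% in the day 2 and 12.4% (9.91 to 15.3) in the day 6 list. For the 11437 such regions among all bound regions, these shares were 25.4%, 71.3%, 46.5% and 10.2%. The share on day 6 thus differed little between these sets of regions, while those at 2 hours and on day 2 differed by more than the intervals.

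**Figure D5:**
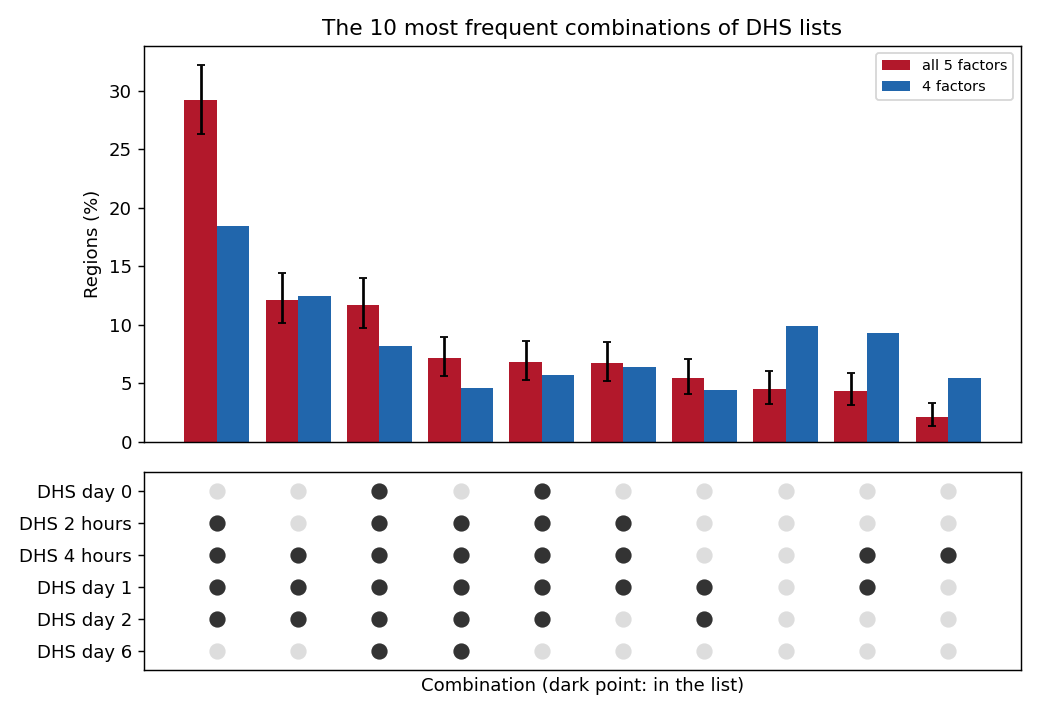
The 10 most frequent combinations of the 6 DHS lists among regions with all 5 factors. Bars give the share (%) of the 938 regions with all 5 factors (red, with exact 95% intervals) and of the 1535 regions with 4 factors (blue), and dark points below mark the lists that held the regions. The first combination, from 2 hours to day 2, takes in 29.2% of the red and 18.4% of the blue regions.

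Regions open on day 0 were the ones most often open on day 6. Of the 184 regions in the day 0 list, 61.4% (54.0 to 68.5) were in the day 6 list, and of the 754 others 10.2% (8.14 to 12.6). Over all bound regions, 3259 were in the day 0 list, of which 1583 were in every DHS list. A further 359 were in every DHS list except that of 2 hours. Both groups were thus in the day 6 list, so frequent presence on day 6 was not particular to regions with the full set. The 184 were also in the lists between in nearly all cases: 95.7% at 2 hours, 99.5% at 4 hours, 100% on day 1 and 98.4% on day 2. The middle of the DHS peak sat close to the shared middle of the factors. At 2 hours the median distance was 45.5 bp and 98.2% of the DHS peaks covered the median midpoint. On day 0 the distance was 94.25 bp and 90.2% covered it. From day 0 to day 6, the DHS middle lay a median of 101.5, 56.5, 65, 54, 58.5 and 68 bp from that of C/EBPbeta at 4 hours. In regions with C/EBPbeta but fewer than 5 factors these distances were 98, 65, 64, 57.5, 62.5 and 89.5 bp. Such closeness was thus not particular to the full set.

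C/EBPbeta, the only one of the 5 factors mapped both before and after 4 hours, was present at most of the regions at each time with the lists as deposited (49.2% on day 0 with lists of equal length). It was listed at 2 hours in 917 of the 938 regions (97.8%, 96.6 to 98.6), on day 2 in 864 (92.1%, 90.2 to 93.8) and on day 0 in 737 (78.6%, 75.8 to 81.2). The shares over all bound regions were 51.1%, 45.4% and 43.8%. It was present at all 4 times in 702 regions (74.8%, 71.9 to 77.6), and in 58.2% (55.7 to 60.7) of regions with 4 factors. The next course was presence from 2 hours to day 2 without day 0, in 154 regions (16.4%). Only 13 regions held C/EBPbeta at 4 hours alone, and 10 of these were in the 4 hours DHS list. Since every one of the 938 regions holds C/EBPbeta at 4 hours, part of the excess over all bound regions is built in. The 1535 regions with 4 factors all hold C/EBPbeta at 4 hours as well.

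C/EBPdelta had been there before induction at 316 regions (33.7%, 30.7 to 36.8), against 18.7% (16.8 to 20.7) of regions with 4 factors and 6.24% of all. C/EBPbeta was at 311 of these 316 on day 0. Regions with C/EBPdelta on day 0 were in the DHS list of that day in 38.9% (33.5 to 44.5) of cases and the other 622 regions in 9.81% (7.58 to 12.4). At 4 hours the shares in the DHS list were close, 86.4% (82.1 to 90.0) and 83.9% (80.8 to 86.7). The C/EBPdelta peaks of day 0 had their middle 53.25 bp from that of C/EBPdelta at 4 hours and 72.5 bp from that of C/EBPbeta (medians), but 42 bp from that of RXR.

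On day 0, C/EBPbeta was often listed where open chromatin was not. On that day, 560 of the 938 regions (59.7%, 56.5 to 62.9) held C/EBPbeta without being in the DHS list. The shares were 50.8% (48.3 to 53.3) of regions with 4 factors and 36.2% of all bound regions. Regions with C/EBPbeta on day 0 were in the 2 hours DHS list in 70.7% (67.3 to 74.0) of cases and those without it in 47.8% (40.7 to 54.9), and in the 4 hours list in 89.0% (86.5 to 91.2) and 69.2% (62.3 to 75.5). In 189 regions (20.1%, 17.6 to 22.9) neither C/EBP factor nor open chromatin was listed on day 0, against 33.1% of regions with 4 factors and 54.2% of all. Of these 189, 170 (89.9%, 84.7 to 93.8) held C/EBPbeta at 2 hours and 86 (45.5%, 38.3 to 52.9) were in the DHS list of 2 hours. Both were listed at 81 of them. For the 508 such regions with 4 factors the first 2 shares were 78.9% and 27.8%, and for the 19154 among all bound regions 26.8% and 5.97%. The rule requires C/EBPbeta at 4 hours in the 189, but not in all bound regions. The DHS list of day 0 is much shorter than the C/EBPbeta list of that day (9989 and 20471 peaks), so absence from it does not show that a site was closed.

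PPARgamma was later found at a minority of these regions, and at a larger share than at regions with 4 factors with the lists as deposited. With lists of equal length the day 2 shares were nearly equal, 21.7% with all 5 and 22.1% with 4 factors, against 9.21% of all. The day 6 shares were then 13.8%, 11.8% and 6.07%. With the lists as deposited, PPARgamma was listed on day 2 at 238 (25.4%, 22.6 to 28.3) and on day 6 at 218 (23.2%, 20.6 to 26.1). The shares were 4.94% and 6.42% of all bound regions and 14.7% and 13.9% of regions with 4 factors. Both days were listed at 163 regions (17.4%), against 9.25% of regions with 4 factors and 3.36% of all. Day 2 alone was listed at 75 (95% interval 6.34 to 9.92%), against 5.47% and 1.58%. Day 6 alone was listed at 55 (5.86%, 4.45 to 7.56), against 4.69% and 3.06%. That makes 293 with PPARgamma on either day (31.2%, 28.3 to 34.3). Either day was listed at 298 of the 1535 regions with 4 factors (19.4%, 17.5 to 21.5). Of all 35341 bound regions, 2829 held PPARgamma on either day (95% interval 7.72 to 8.29%). The PPARgamma peaks were centred on the earlier binding, with their middle 56.75 bp (day 2) and 66.25 bp (day 6) from the median of the 5 midpoints. From the middle of C/EBPbeta at 4 hours it lay 68 and 68.75 bp away. In regions with C/EBPbeta but fewer than 5 factors these distances were 74 and 80 bp, so such closeness was not particular to the full set. Among the 5 factors, the middle of the day 2 peak lay nearest to that of RXR (median 62.25 bp) and farthest from that of Stat5a (74 bp). On day 6 it lay nearest to C/EBPbeta (68.75 bp) and farthest from GR (75.5 bp), with RXR at 72.5 bp. These medians lie close together, so neither order sets 1 factor clearly apart.

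The 293 regions with PPARgamma differed from the other 645 in several other lists, while their width was nearly the same (medians of 951 and 944 bp). They were in the DHS list of day 6 in 41.3% (35.6 to 47.2) against 10.7% (8.42 to 13.3) of cases, in that of day 2 in 95.9% (93.0 to 97.9) against 70.4% (66.7 to 73.9), and in that of day 0 in 27.3% (22.3 to 32.8) against 16.1% (13.4 to 19.2). C/EBPbeta was at 99.3% of them on day 2 and at 89.4% (85.3 to 92.7) on day 0, against 88.8% and 73.6% (70.1 to 77.0) of the others. The median spread of their 5 midpoints was 116.5 bp, against 133 bp. In the DHS list of 2 hours the shares were 71.7% (66.1 to 76.8) and 63.1% (59.2 to 66.8).

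Regions that lacked 1 of the 5 factors differed in PPARgamma by which factor was absent. Where RXR was absent, PPARgamma of day 2 was at 9.85% (8.08 to 11.9) of 1005 regions, and where GR was absent at 14.1% (10.03 to 19.1) of 248. Where Stat5a was absent it was at 32.7% (27.2 to 38.6) of 275, a share above the 25.4% (22.6 to 28.3) at regions with all 5, though the intervals overlap. On day 6 the shares were 10.2% (8.44 to 12.3) without RXR, 14.5% (10.4 to 19.5) without GR and 26.9% (21.8 to 32.6) without Stat5a. The order was another for C/EBPdelta of day 0, with 14.6% (12.5 to 17.0) without RXR, 32.3% (26.5 to 38.5) without GR and 21.8% (17.1 to 27.2) without Stat5a. Open chromatin at 4 hours was listed at 79.5% (76.9 to 82.0), 62.1% (55.7 to 68.2) and 84.4% (79.5 to 88.4) of them. The lists differ in length, and a region without RXR lacks the shortest list; how much that adds to these differences was not tested.

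RNA Pol II, which marks transcribed genes and their starts, was at few of the regions. Its day 0 list held 36 (3.84%, 2.70 to 5.27) and its 4 hours list 69 (7.36%, 5.77 to 9.22), against 6.19% and 6.12% of all bound regions. Within the central 200 bp of the regions the 4 hours share was 5.01% (3.70 to 6.61), against 5.21% of all, so there it was not above that of all. With every peak set to 200 bp the shares were 3.61% and 3.04%. At regions with 4 factors the 4 hours share was lower, 4.43% (3.46 to 5.58), and 3.13% (2.31 to 4.12) within the central 200 bp. RNA Pol II was listed at 4 hours alone at 52 regions (5.54%, 4.17 to 7.21), against 2.61% of regions with 4 factors and 1.95% of all. It was listed on day 0 alone at 19 (2.03%, 1.22 to 3.15), against 1.56% and 2.03%. It was listed at both times at 17 (1.81%, 1.06 to 2.89), against 1.82% and 4.17%. Where listed at 4 hours, the middle of its peak lay 334.5 bp (median) from the median of the 5 midpoints, and 44.9% of the peaks covered that point, against 97.4% for the DHS list of 4 hours. The median gap to the nearest RNA Pol II peak was 69.8 kb on day 0 and 72.8 kb at 4 hours. For regions with 4 factors it was 68.9 and 87.2 kb, and for those with 3 factors 61.5 and 78.1 kb. For those with 2 factors it was 49.2 and 64.0 kb, and for those with 1 factor 53.1 and 68.2 kb. The 69 regions with RNA Pol II at 4 hours were in the 2 hours DHS list in 87.0% (76.7 to 93.9) of cases and the other 869 in 64.1% (60.8 to 67.3).

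Counted over the 14 other lists, the regions were in a median of 7, with quartiles of 6 and 9. The median was 6 for regions with 4 factors, 3 for all bound regions and 1 for regions with 1 factor. All 14 other lists were present at 2 of the 938 regions, at 2 of the 1535 with 4 factors and at 8 of all 35341. The 2 with peaks of all 19 lists were on chromosome 6 at 52110790 to 52111472 and at 138089606 to 138090962. The first is narrow (683 bp), with midpoints spread over 50.5 bp. The second is 1357 bp wide, has a spread of 154 bp and lies 1.54 kb from the next region with all 5 factors. Of the 7 regions with 18 lists, those with the smallest spread were on chromosome 2 at 132424711 to 132425448, without RNA Pol II on day 0, and on chromosome 6 at 129179755 to 129180857 and chromosome 2 at 126188904 to 126189733, without RNA Pol II at 4 hours. At the other end, 3 regions held the 5 factors at 4 hours and were in no other list.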

How the data were processed

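The authors deposited 1 list of peak positions for each of 19 samples of 3T3-L1 cells, 6 of DHS-seq and 13 of ChIP-seq; the input sample was not analysed here. Positions are start and end in bp; the submitters' processing notes name build mm9. The aligner, peak caller, threshold, filters and read depth are not given in the sources used here, and each group has 1 library.

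Peaks of the 5 factor lists of 4 hours were joined at an overlap of 1 bp or more. Where a region held several peaks of a list, the widest gave the midpoint. Another list counted as present when a peak of it overlapped the region by 1 bp or more. Regions were named by number of lists, by midpoint spread, by chain length (steps of up to 50 kb) and by nearness of the absent factor, leaving out chromosome 18. Members, lists and comparisons were chosen with earlier results of these data known. Alternatives were an overlap of 50% of the shorter peak, peaks set to 200 bp, wider peaks only, lists cut to the length of the RXR list by width, a gap of 500 bp, 200 bp around the middle of regions, and regions with 1 peak of each list. SciPy 1.17.1 gave the intervals and Matplotlib 3.10.9 the plots, under Python 3.11.15 with NumPy 2.4.6. On simulated lists, all 400 planted regions with 5 factors were recovered.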

Additional observations from a re-analysis of the deposited data

How the results depend on the processing

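Of 86 alternative values, 48 stayed within 1.5 times the count or within the 95% interval of the reported share or median, and 38 moved beyond it. None of the 17 values moved when shared peaks had to cover 50% of the shorter one, and neither did the count or the spacing when peaks up to 500 bp apart were joined, or the count with an overlap of at least 50 bp (chosen after seeing the data). The median spread was 122 bp for regions with exactly 1 peak of each list and 121 bp with every peak set to 200 bp. That width also gave shares of 80.9%, 87.1% and 74.6% in the DHS lists of 4 hours, day 1 and day 2, and of 1.05% and 3.61% in the RNA Pol II lists of day 0 and 4 hours. Within the central 200 bp of the regions the RNA Pol II shares were 2.56% and 5.01%.

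Wider peaks only left 326 regions with all 5 factors, a median spread of 140 bp, a median distance of 1146 kb, shares of 15.6%, 69.0%, 77.0%, 74.5% and 9.82% in open chromatin of day 0, 2 hours, 4 hours, day 2 and day 6, 96.0% for C/EBPbeta of 2 hours, 18.1% and 12.9% for PPARgamma of day 2 and day 6, and 2.15% and 4.91% for RNA Pol II of day 0 and 4 hours. Lists cut to the length of the RXR list left 189 regions, a spread of 167 bp, a distance of 1959 kb, shares of 7.41%, 63.5% (within the interval), 25.9%, 32.8%, 24.9% and 5.29% in open chromatin of day 0, 2 hours, 4 hours, day 1, day 2 and day 6, 49.2%, 88.9% and 72.5% for C/EBPbeta of day 0, 2 hours and day 2, 39.2% for C/EBPdelta of day 0, 21.7% and 13.8% for PPARgamma, and 1.06% and 3.70% for RNA Pol II. By construction both leave fewer peaks; how far this sets the shares was not tested, and the cause was not tested for the other values either. With lists of equal length, PPARgamma of day 2 was at 22.1% of regions with 4 factors, so its share was no longer larger at regions with all 5. The absence of scores and depth limits every share: a site missing from a list may have fallen under an unknown threshold. No paired analysis was possible because each group holds 1 library.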

Other observations

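The 236 regions with a midpoint spread of at most 85.5 bp were compared with the 236 with a spread of at least 195 bp. PPARgamma of day 6 was at 29.7% (23.9 to 35.9) of the tight and 18.6% (13.9 to 24.2) of the loose regions, although the loose ones were wider (median 1252 bp against 822.5 bp). In the DHS list of 4 hours the shares were 80.1% (74.4 to 85.0) and 91.1% (86.7 to 94.4), the only 1 of the 14 lists whose intervals did not overlap. These comparisons were not tested.

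The share of bound regions that held all 5 factors varied between chromosomes, from 1.46% (0.931 to 2.19) of 1570 on chromosome 7 to 4.18% (3.20 to 5.36) of 1411 on chromosome 16, leaving aside chromosome Y with 1 bound region. Chromosome 6 held the most, 105 of 2893 (3.63%, 2.98 to 4.38). The 42 regions in no DHS list held C/EBPbeta at 2 hours in 39 and on day 2 in 36 cases, and PPARgamma of day 6 in 3. These 3 are the regions of equal width on chromosome 14 between 26737403 and 27017740, which may not be independent.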
